A study of Mus musculus with 56 samples.

Results

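The 37 genes described here encode proteins of DNA replication and cell division. They were chosen by name as cell cycle and proliferation genes, and make up 37 of the 20018 genes to which a probe of the array could be assigned. All 37 were on the array, with 49 probes among them, and each gene was read from 1 probe per tissue, the one with the brightest mean sample signal. A pair of tissues was compared on 1 probe, the brightest over both, which for Mki67 and Cdc6 was not always the probe used within a tissue. RNA came from 3 tissues (lung, liver, forestomach) of male mice of the transgenic mutation reporter strain MutaTMMouse, about 14 weeks old and housed singly. Each mouse received olive oil by gavage every day for 28 days. The oil held no chrysene in the control group D0, and 17.5 mg/kg-bw/day of this polycyclic aromatic hydrocarbon in D1, 50 in D2 and 150 in D3. Tissues were taken 72 hours after the last gavage. There were 5 mice each in D0, D1 and D3 for every tissue, while D2 had 4 in liver and forestomach but 3 in lung. Every mouse and tissue was hybridised to its own array, 56 arrays in all, with the sample in Cy5 and, in Cy3, a universal mouse reference RNA pooled from 11 mouse cell lines. Values are the authors' log2 ratios of sample over reference, so that a negative value says that the tissue gave less signal than the cell lines.

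Most cells of adult liver and lung are not dividing, whereas the forestomach of rodents is lined by a squamous epithelium whose basal cells divide throughout life. A cell that enters the cycle first turns on genes for licensing and copying DNA, among them the Mcm2 to Mcm7 subunits of the replicative helicase, their loaders Cdc6 and Cdt1, the sliding clamp Pcna, and the nucleotide enzymes Tyms and Rrm2. E2F factors drive this G1/S group when retinoblastoma family proteins release them. The G2/M group follows, with the cyclins and Cdk1, the kinases and checkpoint proteins of mitosis, motor proteins and kinetochore components, and it is driven through the MuvB complex, B-Myb and Foxm1 at CHR and CCAAT elements. In resting cells the DREAM complex represses both groups. In whole tissue, fewer dividing cells and less RNA per dividing cell cannot be told apart.

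The start regions of these genes were searched for the elements of both groups, and are printed for 5 members whose values are described below. The RefSeq promoters of assembly GRCm38.p6 held 31 of the 37 members, and were searched over the 250 bases upstream of the start, on both strands. Mcm4, Ccna2, Foxm1, Aurkb, Kif20a and Tpx2 had no entry. The words searched were TTTCCCGC, TTTCGCGC, TTTGCCGC and TTTGGCGC for E2F, TTTGAA and TTCGAA for the CHR, and CCAAT for the CCAAT box. TTCGAA reads the same on both strands. In Mcm6 and Mcm5 an E2F word on one strand overlaps another on the opposite strand. In the lines that follow, written 5' to 3' on the strand of the gene and ending at the base before the start, capitals mark these words or their reverse complements.
Mcm6 (chr1:128359706-128359955, minus strand): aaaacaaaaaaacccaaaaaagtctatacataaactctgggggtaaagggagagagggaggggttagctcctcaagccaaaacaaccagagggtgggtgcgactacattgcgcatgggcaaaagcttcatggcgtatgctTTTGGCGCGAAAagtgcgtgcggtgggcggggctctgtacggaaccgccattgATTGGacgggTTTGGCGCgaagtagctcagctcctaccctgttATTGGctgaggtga
Cdk1 (chr10:69352913-69353162, minus strand): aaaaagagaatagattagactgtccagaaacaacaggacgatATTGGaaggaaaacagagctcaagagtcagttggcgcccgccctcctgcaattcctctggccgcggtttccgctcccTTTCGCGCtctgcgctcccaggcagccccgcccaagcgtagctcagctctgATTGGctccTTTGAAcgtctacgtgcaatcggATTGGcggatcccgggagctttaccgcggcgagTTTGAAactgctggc
Top2a (chr11:99024190-99024439, minus strand): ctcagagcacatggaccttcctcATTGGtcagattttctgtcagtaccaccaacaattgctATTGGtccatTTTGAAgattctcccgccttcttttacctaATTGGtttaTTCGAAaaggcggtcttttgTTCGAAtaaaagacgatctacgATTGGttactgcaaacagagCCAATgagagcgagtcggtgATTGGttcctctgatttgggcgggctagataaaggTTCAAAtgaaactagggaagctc
Mki67 (chr7:135716380-135716629, minus strand): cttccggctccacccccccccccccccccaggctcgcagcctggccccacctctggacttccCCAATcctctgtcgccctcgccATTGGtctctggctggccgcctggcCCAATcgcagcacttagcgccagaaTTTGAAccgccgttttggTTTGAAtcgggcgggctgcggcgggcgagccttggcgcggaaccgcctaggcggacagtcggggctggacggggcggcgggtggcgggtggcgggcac
Ccnb1 (chr13:100786487-100786736, minus strand): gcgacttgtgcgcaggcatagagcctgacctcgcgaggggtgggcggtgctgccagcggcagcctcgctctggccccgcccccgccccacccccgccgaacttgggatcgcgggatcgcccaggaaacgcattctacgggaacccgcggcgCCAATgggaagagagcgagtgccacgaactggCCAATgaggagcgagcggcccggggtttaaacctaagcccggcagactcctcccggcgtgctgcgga

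Mcm6, which stands for the licensing genes, carried 3 E2F words and 2 CCAAT boxes. Cdk1, the mitotic kinase, carried all 3 kinds, Top2a, which untangles sister chromatids, carried 4 CHR and 6 CCAAT words, and Mki67, the gene of the Ki-67 proliferation antigen, carried 2 CHR and 3 CCAAT words. Ccnb1, the cyclin partner of Cdk1, carried 2 CCAAT boxes and no CHR word in this window. An E2F word was found in 5 of the 31 members (16.1%), against 2.16% of all 27018 genes searched. These were 4 of the 10 G1/S members (Mcm5, Mcm6, Mcm7 and Cdc6) and 1 of the 21 G2/M members, Cdk1. A CCAAT box was found in 25 of 31 (80.6%, all genes 37.5%) and a CHR word in 11 of 31 (35.5%, all genes 19.5%). All 11 members with a CHR word also had a CCAAT box (35.5%, all genes 7.00%), and 9 of them belonged to the G2/M group. A matched word is a description of the sequence and was not tested for binding.

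Detection of the members differed by tissue. A spot counts as measured where the scanner software called its sample signal well above background. By that rule 19 to 36 of the 37 members were measured on each forestomach array, 20 to 30 on each liver array and 31 to 34 on each lung array, where 18.1 to 50.2%, 33.2 to 45.2% and 47.6 to 55.2% of all probes were. Counted over arrays, 19 of the 37 members were measured on every forestomach array, 19 on every liver array and 30 on every lung array, while the reference channel, with its dividing cell lines, was measured on every array for 36, 37 and 36 members. Ttk, the kinase that starts the spindle checkpoint, and Aurkb, the kinase of the chromosomal passenger complex, were measured on at most 1 array of any tissue. Tests took the probes measured on at least 3 arrays of the tissue, which kept 35 members in forestomach, 29 in liver and 34 in lung. Not tested were Ttk and Aurkb in forestomach, Cdc6, Ttk and Aurkb in lung, and Cdc6, Bub1, Ttk, Melk, Aurkb, Kif11, Nusap1 and Cenpf in liver. The liver losses fell on 7 of 26 G2/M members and 1 of 11 G1/S members.

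Technical facts of 3 kinds touch the results that follow. Arrays lay on 3 slides per tissue, each slide holding several doses, and in forestomach the slides differed in brightness: 33 to 36 members were measured on the arrays of slide 1, 20 to 31 on slide 2 and 19 to 28 on slide 3, with 39.0 to 50.2%, 23.5 to 33.4% and 18.1 to 28.7% of all probes well above background. No slide was shared between tissues, so differences between tissues cannot be told apart from differences between slides. On 50 of 56 arrays the slide column was the one given to that dose step. The tissues carried their defining markers, since all 8 hepatocyte markers were measured on every liver array, all 7 alveolar type 2 markers on every lung array and 8 of 10 keratinocyte markers on every forestomach array. On 10 forestomach arrays, however, all 8 markers of glandular stomach were measured as well (mice 2, 3 and 5 of D0, 8 and 10 of D1, all 4 of D2 and mouse 19 of D3). On 8 forestomach arrays 7 of 8 hepatocyte markers were measured too (mice 2, 3, 5, 10, 11, 12, 19 and 20), with means of 1.59 to 2.84 against -0.03 to 2.21 on the others. Of these, mouse 20 was not among the 10, and the part of this signal in the differences from liver was not tested. Leaving out the 10 arrays leaves 2 D0 arrays, mice 1 and 4, on which 20 and 19 of the 37 members were measured. The bright slide 1 also holds 2 D0 arrays, mice 2 and 5, and both carry the glandular and hepatocyte signal. On the D3 lung arrays of mice 17 and 19, all 8 skeletal muscle and 9 of 10 keratinocyte markers were measured.

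In vehicle control mice, nearly every member stood below the reference RNA in every tissue. The D0 means of the 37 members ran from -3.17 to 0.10 in forestomach (median -2.01), from -5.26 to -0.42 in liver (median -3.06) and from -4.42 to 0.00 in lung (median -3.13). The highest mean in forestomach and in lung was that of Aurkb, which was measured on no D0 array there. The tissues were ordered only over the 17 members read from the same probe and measured on every D0 array of all 3 tissues, a choice made after the data were seen. Forestomach had the highest mean for 13 of these, with lung second for 7 and liver second for 6. Lung was highest for 3 members and liver for 1. Ttk, Aurkb, Cdc6, Cenpf, Bub1, Kif11 and Nusap1 were measured on no D0 array of at least 1 tissue.

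**Figure D1:**
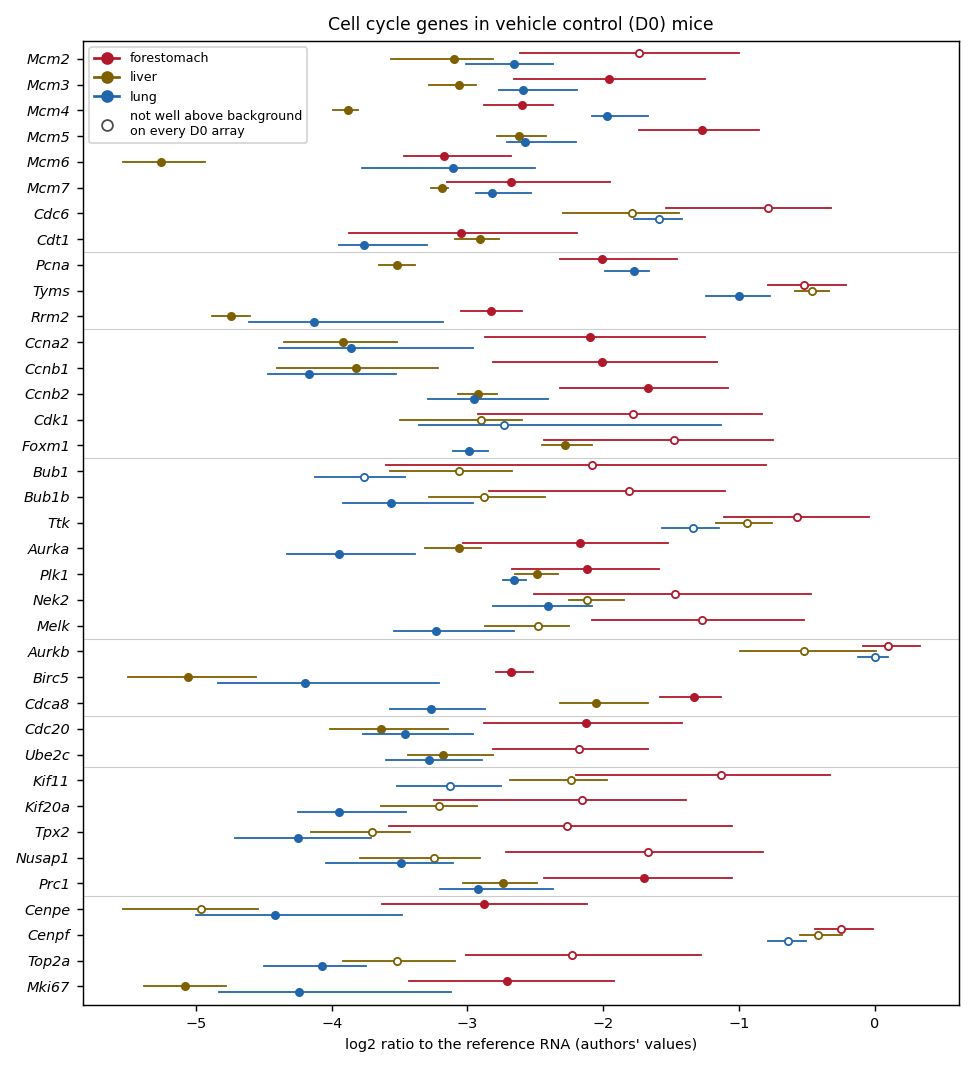
Log2 ratio to the reference RNA (horizontal axis) of the 37 members in D0 mice. Points are means of 5 arrays per tissue, lines run from the lowest to the highest array, open points were not measured on every D0 array, and grey lines part the roles. Of the 17 members measured on every D0 array of all tissues, 13 have their highest mean in forestomach on the authors' normalization, and with median centring without loess 0 of 35 members tested passed as higher in forestomach than in lung.

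Forestomach stood above liver for most members on the authors' normalization. At D0, 30 of 35 members tested were higher in forestomach and 0 lower (limma, adjusted p of at most 0.05 and at least 1.5-fold), where 22.0% of all 29775 probes tested were higher and 19.0% lower. The member median was 1.13 on the log2 scale against 0.04 over all probes. The counts changed with the normalization and the arrays used: with median centring in place of loess, 1 member was higher and 1 lower, the member median was 0.13 and that of all probes -0.17. With the same centring and the forestomach arrays of the bright slide 1 alone (D0 mice 2 and 5), 28 were higher and 0 lower (median 1.29, all probes 0.49). The difference was greatest for Birc5, the survivin subunit of the passenger complex, at -2.68 ± 0.13 in forestomach and -5.06 ± 0.37 in liver (SD, n = 5 each), a difference of 2.39 (95% interval 1.93 to 2.84). Mki67 stood at -2.71 ± 0.58 and -5.08 ± 0.27 (difference 2.37, 1.89 to 2.85) and Mcm6 at -3.17 ± 0.33 and -5.26 ± 0.30 (2.09, 1.51 to 2.67). With median centring without loess these 3 differences were 1.01, 1.08 and 0.60, all in the same direction, and none passed the test (adjusted p 0.242, 0.196 and 0.534).

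The members that did not pass were Mcm7, Cdt1, Tyms, Plk1 and Cenpf. Cdt1 differed by -0.13 (-0.55 to 0.28). Intervals of the tissue pairs use 1 spread per probe shared by all tissues and doses, and can be too narrow where 1 tissue varies more. Cdt1 is such a case, with a D0 SD of 0.73 in forestomach and 0.12 in liver. Tyms was measured on 2 of 5 D0 arrays in each tissue and Cenpf on 1 in forestomach and 0 in liver, and no difference is given for either. Cdt1, the licensing factor, was measured on all 10 arrays at -3.05 ± 0.73 and -2.91 ± 0.12. The difference passed as lower in forestomach with median centring (-1.65, adjusted p 0.00961) and with the forestomach arrays of slide 1 alone (-0.85, 8.48e-05), and was 0.31 (adjusted p 0.214) without the arrays carrying glandular stomach signal. Of the 30 that passed, Cdc6, Bub1, Kif11 and Nusap1 were measured on no D0 array of at least 1 of the tissues. Bub1, Kif11 and Nusap1 were not well above background on any D0 liver array. Their mean sample signals in forestomach were 1.96-fold, 1.89-fold and 3.00-fold those of liver. Forestomach was measured on only 2, 2 and 3 of 5 arrays, so these means include spots near background. They set no lower bound on the difference. With only the brightest forestomach slide, and so 2 D0 mice, 15 members were higher and 1 lower (median 0.41), and with only the members measured on every D0 array of both tissues 15 of 18 were higher and 0 lower (median 1.31).

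Against lung, forestomach was also higher for most members on the authors' normalization. Of 35 members, 27 were higher in forestomach (background 18.3%) and 1, Mcm4, lower (19.3%), with a member median of 1.30 against 0.00 over all 32699 probes. Cdc6, among the 27, was measured on no D0 lung array and on 1 of 5 D0 forestomach arrays. With median centring without loess 0 were higher and 12 lower, the member median was -0.90 and that of all probes -0.95. Of the 24 G2/M members tested, 21 were higher (median 1.61), and of the 11 G1/S members 6 were higher and 1 lower (median 0.63). Ccnb1 differed by 2.16 (1.62 to 2.69, from -2.01 ± 0.75 and -4.17 ± 0.39), Kif11, the motor that pushes the spindle poles apart, by 1.99 (1.46 to 2.53) and Tpx2, which activates Aurka on the spindle, by 1.97 (1.33 to 2.62). Kif11 and Tpx2 were measured on only 2 of the 5 D0 forestomach arrays each, so their forestomach levels are mostly those of spots near background. On those 5 arrays Kif11 ran from -2.20 to -0.33 and Tpx2 from -3.58 to -1.05. The sizes of their differences are therefore not measured ones. Under median centring Ccnb1 was at -0.33, Tpx2 at -0.32 and Kif11 at 0.31, which is 0.62, 0.63 and 1.26 above the median of all probes in that setting. Some licensing and clamp genes did not stand higher in forestomach: Mcm6 differed by -0.06 (-0.64 to 0.52), Pcna by -0.24 (-0.46 to -0.02, adjusted p 0.0534) and Mcm4 by -0.63 (-0.81 to -0.45). Under median centring they were at -1.23, -1.44 and -1.91 relative to the median of all probes. Mcm4 fell short of the fold limit without mouse 5 (-0.48) and without the glandular arrays (-0.50). With the same 2 D0 mice of the brightest forestomach slide, 18 members were higher and 1 lower (median 0.67), and adding median centring to that left 7 and 1 (median 0.35, all probes -0.19).

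Between lung and liver the direction differed from gene to gene. Of 34 members, 6 were higher in lung (background 24.9%) and 8 lower (21.1%), with a member median of -0.17 against 0.03 over all 32854 probes. With median centring 16 were higher and 0 lower, the member median being 1.00 and that of all probes 0.62. Normexp background correction with loess left 5 higher and 4 lower. The 6 that were higher were Mcm6 (2.15, 1.57 to 2.73), Mcm4 (1.90, 1.72 to 2.09), Pcna (1.75, 1.54 to 1.97), Mki67 (1.31, from -4.24 ± 0.66 and -5.54 ± 0.41 on the probe brightest over both tissues), Birc5 (0.87) and Rrm2 (0.61). Pcna stood at -1.77 ± 0.14 in lung and -3.52 ± 0.10 in liver, with no overlap of the 5 and 5 arrays. Of the 8 that were lower, Cdca8, a passenger complex subunit, differed by -1.22 (-1.55 to -0.88) and Aurka, the centrosomal kinase, by -0.89 (-1.34 to -0.45). Under median centring Cdca8 no longer passed (-0.16) and Aurka was at 0.36, which is -0.78 and -0.26 relative to all probes. Kif11, also among the 8, was measured on no D0 liver array, and its lung signal was no brighter than that of liver, so no fold is given. Cdt1 was lower in lung as well (-0.84, -1.25 to -0.43). The mouse as a replicate block left 30, 29 and 14 members called in the 3 pairs, in the order given, against 30, 28 and 14 without it.

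**Figure D2:**
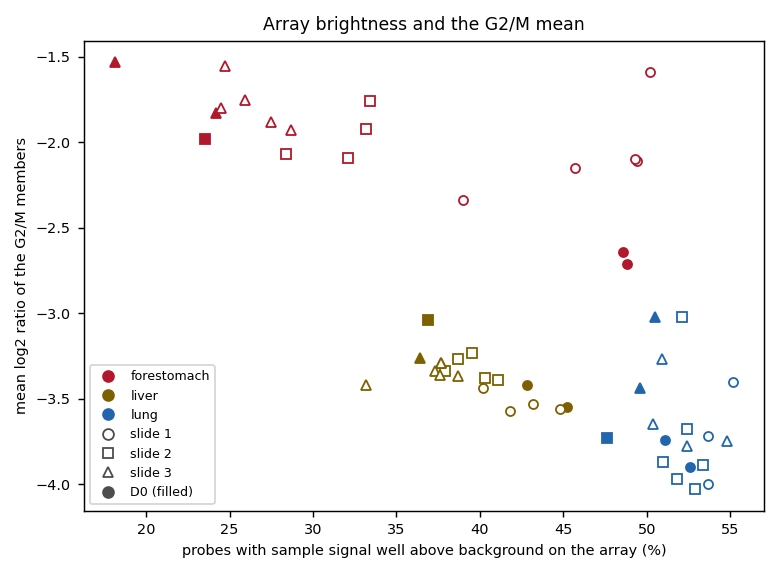
Mean log2 ratio of the G2/M members measured on every array of a tissue (vertical axis) against the percentage of all probes well above background (horizontal axis). Each point is 1 array, marker shape gives the slide and filled points are D0. In forestomach the dimmer slides 2 and 3 averaged -1.96 and -1.75 and the bright slide 1 averaged -2.23, and both D0 arrays of slide 1 lie at -2.64 and -2.71.

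The dose comparison asked whether chrysene moved these genes away from the control level. No member passed both limits at any dose in any tissue. Over all probes tested, 0% passed at D1 and D2 in each tissue, and at D3 0.00727% passed in forestomach, 0% in liver and 0.127% in lung. A fitted trend over the dose steps called 0 members, against 0.0400%, 0% and 0.168% of all probes. The precision differed by tissue. The 95% interval of the D3 change lay wholly inside 1.5-fold for 28 of 29 members in liver, 26 of 34 in lung and 9 of 35 in forestomach. Some of these liver members were near background, with Tpx2, Tyms, Bub1b and Cenpe measured on 6, 8, 9 and 9 of 19 arrays. For such spots a narrow interval does not show that the RNA was unchanged. The distance from the estimate to the end of the interval had a median of 0.25 on the log2 scale in liver, 0.38 in lung and 0.57 in forestomach. At D3 no member had all its arrays above or all below those of D0, in any tissue, where the shares of all probes were 0.861% above and 0.519% below in forestomach, 0.347% and 0.392% in liver, and 0.676% and 1.94% in lung.

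**Figure D3:**
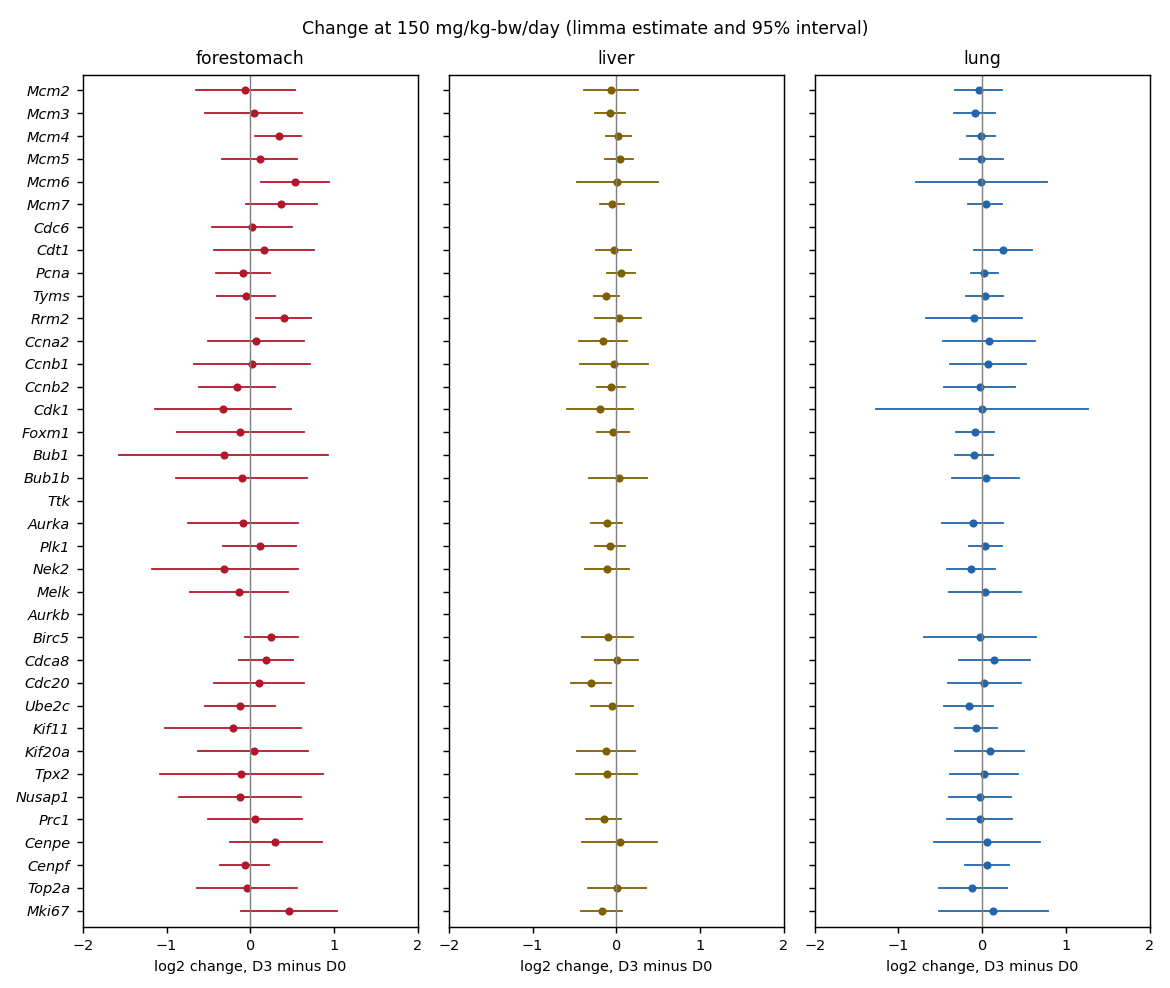
Log2 change from D0 to D3 (horizontal axis) of each member tested, by tissue. Points are limma estimates and lines 95% intervals, members not tested in a tissue have no point, and no member passed both limits. The median distance from the estimate to the end of the interval was 0.25 in liver, 0.38 in lung and 0.57 in forestomach.

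In forestomach the values nearest to a change were licensing and synthesis genes on the higher side. Mcm6 read -3.47, -3.31, -2.97, -2.68 and -3.42 in the D0 mice and -3.03, -2.52, -2.52, -2.44 and -2.66 in the D3 mice. The groups overlapped only in the D0 mice 3 and 4 and the D3 mouse 16. The difference was 0.53 (0.13 to 0.94, limma p 0.0123, adjusted p 0.339), and it was 0.82, 0.69 and 0.30 within slides 1, 2 and 3. Rrm2, the small subunit of ribonucleotide reductase, read -2.60, -2.99, -3.05, -2.75 and -2.78 at D0, and all of D1 lay above that, at -2.07, -2.34, -2.49, -2.15 and -2.29. Its change was 0.57 at D1 (0.24 to 0.89, p 0.00180, adjusted p 1.00), 0.08 at D2 and 0.40 at D3 (0.07 to 0.72, p 0.0193, adjusted p 0.386), so that the middle dose did not follow its neighbours. Mcm4 changed by 0.34 at D3 (0.06 to 0.61, adjusted p 0.384) and Mcm7 by 0.37 (-0.05 to 0.79, adjusted p 0.614). Across the settings tried the D3 change stayed above 0 for these 4 genes, at 0.39 to 1.06 for Mcm6, 0.29 to 0.95 for Rrm2, 0.27 to 0.91 for Mcm4 and 0.05 to 0.95 for Mcm7. The low end for Mcm6 and Mcm7 came from leaving out the arrays with glandular stomach signal, and the high ends from median centring without loess, which moved the median of all probes to 0.18.

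The other forestomach members gave less. Counting an unadjusted p of at most 0.05, 5 members were past it at D1 (background 4.17%), 1 at D2 (7.53%) and 3 at D3 (9.24%). At D1 these were Rrm2, Mcm6 (0.42), Birc5 (0.41), Cdca8 (0.38) and Mcm4 (0.31), and Rrm2 was the 1 member of 35 with all D1 arrays above all D0 arrays (0.352% of all probes). At D2 it was Birc5, which read -2.73, -2.78, -2.52, -2.57 and -2.79 at D0 and -1.95, -2.18, -2.42 and -2.15 at D2, the only member with all D2 arrays above all D0 arrays (0.955% of all probes). Its difference was 0.50 (0.16 to 0.84, adjusted p 0.512) at D2 and 0.25 (-0.07 to 0.57) at D3. All 4 D2 arrays carried glandular stomach markers, as did 3 of 5 D0 arrays, and the part of this in the D2 values was not tested. Mki67 read -2.79, -3.01, -2.40, -1.92 and -3.43 at D0 and -2.41, -2.31, -2.34, -2.16 and -2.03 at D3, a difference of 0.46 (-0.11 to 1.03), which was 0.08 without the arrays carrying glandular signal and 1.06 with median centring. The control mice spanned more than the treated mice, and the D0 mice 2 and 5 on the bright slide were the lowest. The D3 changes of Mcm2 (-0.06, -0.65 to 0.53), Pcna (-0.09, -0.41 to 0.24), Ccnb1 (0.02, -0.67 to 0.71), Cdk1 (-0.33, -1.14 to 0.48) and Top2a (-0.04, -0.64 to 0.56) had intervals that held 0. With median centring they were at 0.41, 0.46, 0.57, 0.15 and 0.41, none of them past the test. Without the arrays carrying glandular signal Pcna was at -0.26 and Ccnb1 at -0.46, against 2 D0 mice, and Mcm2, Cdk1 and Top2a were measured on neither of these.

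By role in forestomach at D3, 7 of 8 licensing genes stood above D0 (median 0.13), as did 8 of 11 G1/S members (median 0.11), while 10 of 24 G2/M members did (median -0.08). Over all 35 members the median was 0.18 at D1 (30 above 0), 0.11 at D2 (27 above) and 0.02 at D3 (18 above), beside 0.00, -0.01 and 0.00 over all probes. The D3 median changed with the arrays and with the normalization: it ran from -0.16 to 0.20 with 1 mouse left out and was -0.35 without the arrays carrying glandular signal, against 2 D0 arrays with 20 and 19 members measured, while median centring gave 0.49 (all probes 0.18). The mean of the 11 G2/M members measured on every array differed between D3 and D0 by 0.54 on slide 1, -0.03 on slide 2 and -0.12 on slide 3, with 1 or 2 arrays a group, and that of the 8 G1/S members by 0.44, 0.21 and 0.14. The mean of the keratinocyte markers lay between 4.51 and 5.53 at D3 and between 3.51 and 5.39 at D0, a difference of 0.13, 0.43 and 0.94 within slides 1, 2 and 3, and its part in these values was not tested.

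**Figure D4:**
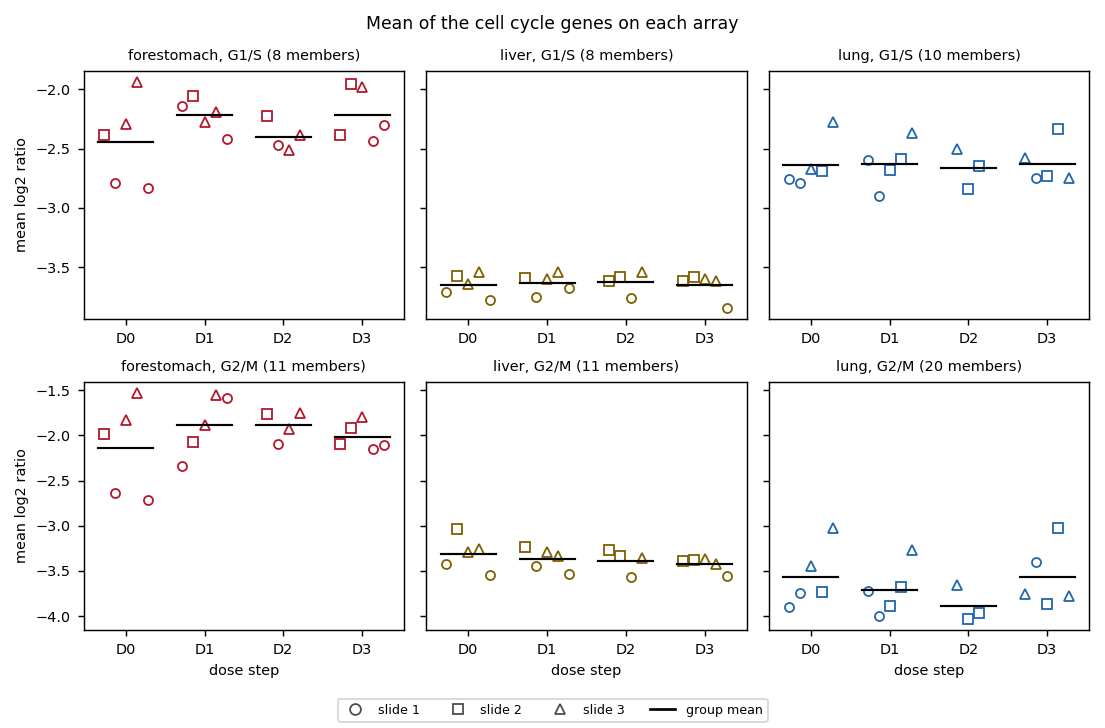
Mean log2 ratio (vertical axis) over the members measured on every array of a tissue, for the G1/S group (upper row) and the G2/M group (lower row), by dose step. Each point is 1 array, marker shape gives the slide and bars are group means. The dose groups overlap in every panel, and D0 forestomach arrays spread from -2.71 to -1.53 in the G2/M group.

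In liver the members were low at every dose. Mki67 read -5.38, -4.78, -4.97, -4.91 and -5.36 at D0 and -5.15, -5.19, -5.13, -5.21 and -5.60 at D3, a difference of -0.17 (-0.42 to 0.07, adjusted p 1.00). The 1 member past an unadjusted p of 0.05 at D3 (background 4.80%) was Cdc20, the activator of the anaphase-promoting complex. It read -3.77, -3.14, -3.73, -3.54 and -4.01 at D0 and -4.08, -3.89, -3.90, -3.88 and -3.94 at D3. Its difference was -0.30 (-0.54 to -0.06, p 0.0158, adjusted p 0.965), between -0.40 and -0.18 over the settings tried, with the smallest size when mouse 2 was left out. By slide it was -0.05, -0.84 and -0.26. At D1 and D2 0 members were past an unadjusted p of 0.05 (background 3.61% and 3.79%).

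The D3 median of the 29 liver members was -0.06 (20 below 0, all probes -0.01), and it lay between -0.12 and -0.01 under every setting tried. Of the G2/M members 15 of 19 stood below D0 (median -0.10), and of the G1/S members 5 of 10 (median -0.01), where 53.0% of all probes did. The difference between the phases was not tested. All 5 genes of the cyclin, Cdk1 and Foxm1 group (-0.20 to -0.03) and all 3 spindle genes tested (-0.15 to -0.11) stood below 0, none of them past the test. Prc1, which bundles the spindle midzone, differed by -0.15 (-0.36 to 0.06) and Tyms by -0.12 (-0.27 to 0.03), Tyms being measured on 8 of 19 arrays. Mcm2 (-0.06, -0.38 to 0.26), Mcm6 (0.01, -0.47 to 0.50), Pcna (0.06, -0.11 to 0.22), Rrm2 (0.03, -0.25 to 0.30), Ccnb1 (-0.03, -0.43 to 0.38), Cdk1 (-0.20, -0.59 to 0.20) and Top2a (0.01, -0.34 to 0.36) had intervals that held 0. With the array column as a covariate Prc1 was at 0.07, Tyms at 0.03, Ccnb1 at 0.33, Mcm2 at 0.10, Pcna at 0.11 and Cdk1 at -0.07, none past the test. Slide moved with the liver values as well: the 6 arrays of slide 1 averaged -3.51 over the G2/M members, against -3.27 and -3.33 on slides 2 and 3, and mouse 20, the 1 D3 array on slide 1, was the lowest D3 value for Mki67 and Top2a.

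In lung the members differed between mice within each dose group. Mki67 read -4.83, -4.46, -4.22, -4.55 and -3.12 in the D0 mice, -4.41, -4.66, -4.60, -4.25 and -3.57 at D1, -4.27, -4.86 and -4.85 at D2, and -4.69, -3.69, -4.42, -3.28 and -4.42 at D3. Mouse 5 of the controls was the highest of the 18 lungs, followed by mouse 19 of D3, mouse 10 of D1 and mouse 17 of D3. The D3 change was 0.13 (-0.52 to 0.79, adjusted p 0.872), and it was 0.96, 0.70 and -0.89 within slides 1, 2 and 3. Without mice 17 and 19, whose arrays carried the muscle and keratinocyte signal, it was -0.28. It was 0.41 without mouse 5 and -1.75 with the array column as a covariate. Rrm2, at -3.18 in mouse 5, -3.35 in mouse 19 and -4.75 to -3.88 in the others, and Ccnb1, at -3.53, -3.31 and -4.74 to -3.81, were highest in the same 2 mice. The mean of the 20 G2/M members measured on every lung array was -3.02 in mice 5 and 19, -3.27 in mouse 10, -3.40 in mouse 17 and -4.03 to -3.44 in the other 14.

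**Figure D5:**
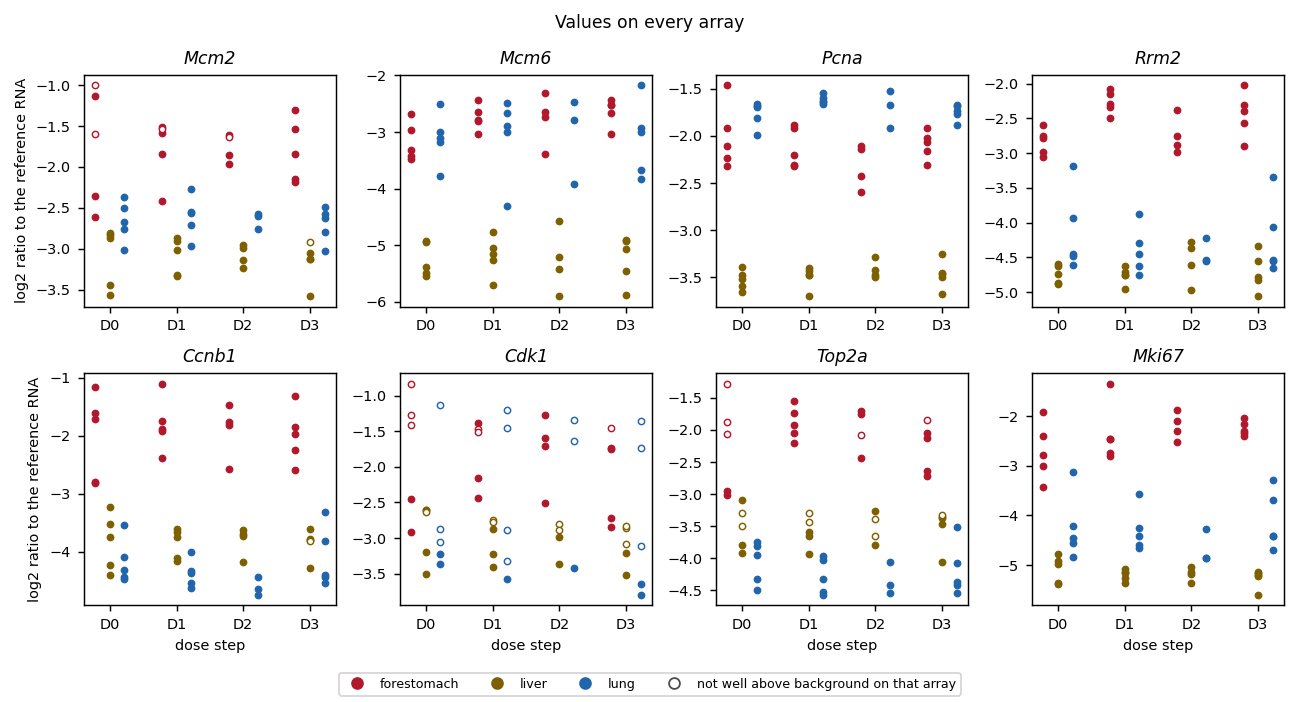
Log2 ratio to the reference RNA (vertical axis) of 8 members on every array, by dose step and tissue. Each point is 1 array and open points were not well above background. In lung Mki67, Rrm2 and Ccnb1 show the high single mice in D0 and D3, and most Cdk1 points in lung are open.

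The G2/M members varied together across lungs. After the dose means were removed, the 190 pairs among the 20 members had a median Pearson correlation of 0.84 over the 18 arrays (0.03 to 0.99), and 0.89 with slide means removed as well. The 45 pairs of the 10 G1/S members had 0.47 and 0.42. In forestomach the 55 pairs of 11 G2/M members had 0.66 and 0.66, and in liver 0.62, or 0.22 with slide means removed. These correlations are descriptions across arrays that share slides, depth and the reference channel, and were not compared with those of other probes. On mouse 19 the lymphocyte markers were also the highest of all lungs, with a mean log2 ratio of 2.57 for B cells (0.91 to 1.73 on the others) and 1.52 for T cells (0.02 to 0.63). Mouse 5 stood at 1.26 and 0.43, inside the range of the others, with muscle and keratinocyte means of -0.42 and -0.46. On mice 17 and 19 those means were 5.36 and 5.49 for muscle and 3.13 and 3.57 for keratinocytes, and their part in the values of the members was not tested.

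No lung member was past an unadjusted p of 0.05 at D1 (background 5.88%) or D3 (16.2%), and 1 was at D2 (6.12%). This was Ube2c, the ubiquitin-conjugating enzyme of the anaphase-promoting complex, which read -3.49, -3.28, -3.13, -3.60 and -2.89 at D0 and -3.65, -4.00 and -3.86 at D2. It was also the 1 member of 34 with all D2 arrays below all D0 arrays (2.89% of all probes). The difference was -0.56 (-0.90 to -0.22, adjusted p 0.612) with 3 mice, and -0.16 (-0.46 to 0.13) at D3. At D2, 23 of 24 G2/M members stood below D0 with a median of -0.29, against 0.01 for the G1/S members and 0.00 for all probes. Without control mouse 5, a check added after the data were seen, 21 of 24 did, with a median of -0.18. These members vary together and are not separate observations. The mean of those measured on every array differed by -0.27 within slide 2 and by -0.42 within slide 3, or -0.21 there without mouse 5. At D3 the member median was -0.01 (all probes -0.03), with 16 members above 0 and 18 below. It was -0.19 without mice 17 and 19, and -0.60 with the array column as a covariate, in a tissue where all 5 D0 arrays lay in column 1. Cdt1 gave the smallest p at D3, with a difference of 0.25 (-0.10 to 0.59, adjusted p 0.478) that was 0.09 without mice 17 and 19 and -0.78 with the column covariate. Nek2 (-0.13, -0.42 to 0.15) and Bub1 (-0.10, -0.33 to 0.13), both kinases of mitosis, and Mcm2 (-0.04, -0.33 to 0.24), Mcm6 (-0.01, -0.79 to 0.77), Pcna (0.02, -0.14 to 0.19), Rrm2 (-0.10, -0.67 to 0.47), Ccnb1 (0.07, -0.39 to 0.52) and Top2a (-0.12, -0.52 to 0.29) had intervals that held 0. With the column covariate Rrm2 was at -1.10, Top2a at -1.10, Ccnb1 at -0.82, Bub1 at -0.66, Ube2c at -0.61 and Pcna at -0.19. In that setting Nek2 was at 0.92, Cdk1 at 0.70 and Mcm2 at 0.28, and none of these was past the test.

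Cdk1 in lung is a case of a probe near its limit. Its sample signal lay between 69.0 and 122 units on all 18 arrays and was well above background on 6, all of them on slide 3. The reference signal differed by slide, at 104 to 160 units on slide 2, 364 to 444 on slide 1 and 774 to 959 on slide 3. The log2 ratio followed it, at -1.74 to -1.13 on slide 2, -3.32 to -2.88 on slide 1 and -3.80 to -3.22 on slide 3. Its D3 change of 0.00 (-1.27 to 1.26) was the least precise of the 34. Within slides 1, 2 and 3 the change was -0.15, -0.42 and -0.44. On slide 3 the D3 mice read -3.65 and -3.80 and the D0 mice -3.22 and -3.36, with 2 arrays a group and no test.

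The D3 change was also compared between tissues in 1 fit. No member passed both limits for a difference in D3 change between forestomach and liver (0 of 35, all probes 0.0806%), forestomach and lung (0 of 35, 0.765%) or lung and liver (0 of 34, 0%). The 35 against liver include Cdc6, Bub1, Melk, Kif11, Nusap1 and Cenpf, which were not tested within liver. Cdc6 was not tested within lung either, and the others also enter lung against liver. With a median distance of 0.57 from estimate to interval end in forestomach, not passing does not show equal changes. The difference between forestomach and liver ran from -0.38 to 0.63 over the members, with a median of 0.05.

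Other genes of the cell cycle were read in the same way from a list of 82: G1 cyclins and kinases, Cdk inhibitors and pocket proteins, E2F and Myb regulators, further replisome genes and further mitosis genes. In forestomach 77 were tested, in liver 70 and in lung 77, and 0 passed both limits at any dose. E2f7, a repressor of E2F targets, came nearest in lung. It was lower at D3 by 0.45 on the log2 scale (-0.45, -0.65 to -0.25, limma adjusted p 0.0494), with all D3 arrays below all D0 arrays, but its fold of 0.733 did not reach the limit. Its changes were -0.25 at D1 and -0.23 at D2, and the fitted trend was -0.41 (adjusted p 0.0435). Pttg1, the securin that holds back chromatid separation, differed by -0.26 in lung (-0.44 to -0.08, adjusted p 0.173). In lung 7 of the 77 were past an unadjusted p of 0.05 at D3, beside the 16.2% of all probes, and 8 were at D2, beside 6.12%. In liver Lin37, a subunit of DREAM, differed by -0.24 (-0.39 to -0.09, adjusted p 0.965), with all D3 arrays below all D0 arrays (1 of 70, all probes 0.392%). Rfc5, a clamp loader subunit, differed by -0.15 (-0.31 to 0.01). In forestomach Stmn1, which destabilises microtubules, differed by 0.27 (0.02 to 0.52, adjusted p 0.466) and Smc4, a condensin subunit, by 0.35 (-0.03 to 0.72). The D3 medians of the 82-gene list were -0.01 in forestomach, -0.03 in liver and -0.01 in lung.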

How the data were processed

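RNA from random tissue sections of 19 mice was hybridised to 56 2-colour Agilent arrays and scanned with Feature Extraction 10.7.3.1. The authors normalized the arrays and deposited log2 ratios of sample over reference. The deposited intensity of each channel and the 0 or 1 calls of signal well above background, per the file headers, were used to choose probes and to limit statements on dim spots. Spots of 1 probe were averaged, control spots left out, and probes named by RefSeq accession. Tests used limma 3.58.1 in R 4.3.3 with Benjamini-Hochberg adjustment over all probes of the comparison, at an adjusted p of at most 0.05 and 1.5-fold. A probe was tested where well above background on at least 3 arrays. The study's MAANOVA test was not run, and limma took its place. The limma steps were tested on simulated data. Members and lists were chosen with earlier results of these data known.

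Genes named with values were 8 fixed members (Mki67, Top2a, Ccnb1, Cdk1, Mcm2, Mcm6, Pcna and Rrm2), the 4 members with the smallest p at D3 in each tissue, the 3 with the largest and the 3 with the smallest D0 difference of each tissue pair, and the 2 other cell cycle genes with the smallest p at D3. Further members named beside a count were chosen after their values were seen. Alternatives covered background correction, normalization, filters, slide, array column and each mouse left out. Those without mice 17 and 19, without arrays carrying glandular stomach signal, on the brightest forestomach slide, and with every D0 array measured were chosen after seeing the data. Tissues of 1 mouse share its number, so the numbers pair the tissues, and deviations of the same mouse correlated at a median of 0.0769 between forestomach and liver, 0.0231 between forestomach and lung and 0.155 between lung and liver. Each array is a separate mouse of its group, so p-values of the dose comparisons measure the spread between mice, and the number of arrays limits the precision. Those of the tissue pairs also carry differences between slides, and their main fit was not paired by mouse.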

Additional observations from a re-analysis of the deposited data

Results flagged for a closer look

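Single arrays stood apart from the rest of their dose group in 11 of 142 groups examined, a rule that chance meets in about 1 of 20 groups. In forestomach, Mki67 read -1.35 in mouse 10 of D1, with the others between -2.80 and -2.47. In liver, mouse 20 of D3 read -5.60 for Mki67 (others -5.21 to -5.13), -4.05 for Top2a (-3.46 to -3.32), -3.84 for the G1/S mean (-3.61 to -3.58) and -3.56 for the G2/M mean (-3.42 to -3.37). It was the 1 D3 liver array on slide 1, where the G1/S means of all doses lay between -3.84 and -3.67. Pcna read -3.70 in liver mouse 7 of D1 (others -3.47 to -3.40).

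In lung, mouse 5 of D0 read -3.30 for Cdt1 (others -3.95 to -3.78) and -2.28 for the G1/S mean (-2.79 to -2.67), and mouse 19 of D3 read -2.99 for Cdt1 (-3.72 to -3.56). Mcm6 read -4.30 in mouse 7 of D1, below the other 4 mice of that group. Cdk1 read -1.13 in mouse 4 of D0 (-3.36 to -2.88), where its sample signal was not well above background.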

How the results depend on the processing

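No member was called at any dose, in the trend or in the D3 change between tissues under any alternative run, leaving out each mouse included (0 in every case). The tissue counts at D0 (30, 28 and 14 members for forestomach against liver, forestomach against lung, and lung against liver) ran from 26 to 31, 26 to 30 and 13 to 15 with 1 mouse left out, and the replicate block of the mouse gave 30, 29 and 14, so that the pairing changed no call count by over 1.5 times. Median centring without loess gave 2 (1 higher, 1 lower), 12 (0 higher, 12 lower) and 16 (16 higher, 0 lower) members, and moved the median of all probes to -0.17, -0.95 and 0.62. With that shift the sign turned for Ccnb1 (-0.33) and Tpx2 (-0.32) in forestomach against lung, and for Aurka (0.36) in lung against liver, but relative to all probes they were at 0.62, 0.63 and -0.26. The Kif11 value also turned there (0.40), but Kif11 was measured on no D0 liver array and has no direction. The forestomach slide 1 alone, with 2 D0 mice, gave 16 against liver and 19 against lung, with median centring 28 and 8, and with probes measured on every D0 array used 14 and 18. Probes measured on every D0 array of both tissues gave 15, 15 and 10. Normexp with loess gave 9 in lung against liver. The D3 median of lung was -0.60 with the array column as covariate. D3 medians with 1 mouse left out lay between -0.16 and 0.20 for forestomach, -0.11 and -0.02 for liver, and -0.12 and 0.10 for lung. The cause was not tested. Spots near background limit the liver and forestomach values most.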
